A study of Mus musculus with 12 samples.

Results

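The 10 genes described here encode surface proteins grouped as inhibitory receptors: Pdcd1, Ctla4, Lag3, Havcr2, Tigit, Cd160, Cd244a, Btla, Cd200 and Entpd1. They were taken from a fixed list of symbols and matched to gene identifiers of GENCODE mouse release M21. All 10 were found in both count tables, out of 55487 identifiers in each. RNA was sequenced from OT-1 CD8+ T cells, which come from mice with 1 transgenic T cell receptor against an ovalbumin peptide. There were 12 libraries, 3 in each of 4 groups.

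Female and Male were cells of each sex taken from the spleen, activated for 3 days with beads against CD3 and CD28 and with recombinant mouse IL2. Other male cells, prepared as their own batch, were electroporated before 3 days of culture and formed the groups WT and KD. In KD, Cas9 was introduced together with a guide RNA to Kdm5d, a histone demethylase gene of the Y chromosome, whereas WT had the guide RNA alone. Whether WT and KD cells were also stimulated with beads is not given in the sources used here. No group received Cas9 without that guide, so effects of Cas9 and of lower Kdm5d cannot be told apart. All 4 groups carry the OT-1 receptor, and the genetic background, the ages and the number of mice are not given in the sources used here. Nothing says that the 3 libraries of a group came from separate mice or cultures, so p-values measure the spread between these libraries, which may be technical.

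Many inhibitory receptors are low on resting CD8 T cells and increase after stimulation through the T cell receptor, although some, such as BTLA, are already present at rest. They limit the response by taking ligands away from activating receptors or by bringing phosphatases and adaptors to the membrane. When antigen persists, several of them stay high together, which is one mark of exhausted T cells, but on cells activated for a few days they mark activation as well. The list is not uniform: Cd200 is itself the ligand of an inhibitory receptor, and Entpd1 is an enzyme (CD39) that removes extracellular ATP. Only RNA was measured, so whether each protein inhibited these cells was not tested.

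Every gene of the list differed between Male and Female cells, and 9 of 10 differed between KD and WT, but not in 1 direction. Of all genes tested, 49.8% differed between the sexes and 35.1% in KD against WT, and 70.0% and 51.1% of those whose mean log2 count per 1000000 was 1 or more. Cd244a, Cd160, Havcr2 and Entpd1 rose in Male relative to Female and fell in KD relative to WT. Ctla4 and Cd200 went the other way in both comparisons. Pdcd1, Lag3 and Btla were lower in Male and also lower in KD, and Tigit was lower in Male and not called in KD. Havcr2 in Male against Female was the weakest of these calls and was lost in several alternative fits.

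Total counts ranged from 78748647 to 110803318 per library. Kdm5d was at 48.4, 51.9 and 52.4 counts per 1000000 counts of a library (CPM) in WT and at 21.4, 21.8 and 22.9 CPM in KD. Its fitted log2 fold change, LFC below, was -1.21 in KD over WT (SE 0.045, edgeR adjusted p 3.13e-08). The CD8 T cell identity was visible in all libraries: Cd8a was between 491.7 and 635.8 CPM and Cd4 did not exceed 0.201 CPM. B cell, myeloid, erythroid and platelet markers summed to at most 8.56 CPM for any of these lists, and Ms4a1, Siglech and the 3 listed globin genes were at 0 counts throughout. In bulk RNA, fewer cells with a transcript and less of it per cell cannot be told apart.

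The sequences just before 3 of the start sites are shown for genes that moved in opposite directions in the 2 comparisons. Havcr2 and Cd244a rose in Male and fell in KD, and Ctla4 was the reverse. Each run is the 250 bases before the transcription start given by RefSeq on GRCm38.p6, 5′ to 3′ on the strand of the gene, with matches to 6 searched motifs in capitals. The windows lie at chr11:46454681-46454930, chr1:171558943-171559192 and chr1:60908775-60909024, all on the plus strand. The Ctla4 window falls inside the GENCODE gene, whose longest model starts further upstream.
Havcr2: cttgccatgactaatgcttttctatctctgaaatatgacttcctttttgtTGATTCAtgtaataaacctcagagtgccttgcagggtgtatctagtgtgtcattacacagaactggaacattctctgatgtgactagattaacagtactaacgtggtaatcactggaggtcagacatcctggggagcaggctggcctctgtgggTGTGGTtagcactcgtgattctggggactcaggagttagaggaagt
Cd244a: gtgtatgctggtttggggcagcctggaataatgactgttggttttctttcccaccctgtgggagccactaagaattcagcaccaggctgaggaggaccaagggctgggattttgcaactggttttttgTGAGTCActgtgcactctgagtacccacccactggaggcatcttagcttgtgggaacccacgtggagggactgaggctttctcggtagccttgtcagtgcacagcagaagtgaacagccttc
Ctla4: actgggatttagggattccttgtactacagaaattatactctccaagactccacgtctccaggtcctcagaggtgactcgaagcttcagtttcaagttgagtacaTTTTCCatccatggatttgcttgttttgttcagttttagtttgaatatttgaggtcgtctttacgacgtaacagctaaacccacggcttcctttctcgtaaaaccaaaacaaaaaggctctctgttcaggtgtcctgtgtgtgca

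The motifs, read on both strands, were the core of interferon-stimulated response elements, GGAAAA (an NFAT core), TGANTCA (AP-1), TGTGGT (RUNX), AGGTGTGA (T-box) and CTTTGA (TCF/LEF). NFAT and AP-1 act downstream of the T cell receptor. Partial overlap between motifs was allowed. Havcr2 held TGATTCA at 200 to 194 bases before its start and TGTGGT at 46 to 41 bases. Cd244a held TGAGTCA at 122 to 116 bases before its start. Ctla4 held TTTTCC, the reverse complement of the NFAT core, at 145 to 140 bases. RefSeq windows were matched for 9 of the 10 genes, all but Lag3, and numbered 11, with 2 each for Cd160 and Entpd1.

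TGANTCA was in 2 of these 11 windows and in 6.75% of 32851 windows of all genes. TGTGGT was in 5 of 11 against 14.0%, GGAAAA in 3 of 11 against 20.4%, and CTTTGA in 1 of 11 against 13.8%. The interferon-stimulated response element core was in 0 of 11 against 2.98%, and AGGTGTGA in 0 of 11 against 1.12%. These matches describe letters in a short window, and the motifs were chosen with the expression results known.

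The comparison of Male with Female asked how activated CD8 T cells of the 2 sexes differ. All 10 genes passed the low-count filter and all 10 were called at an adjusted p under 0.05, 4 higher and 6 lower in Male. Of 20208 genes tested, 49.8% were called, 23.5% higher and 26.3% lower in Male, and the share called was 70.0% where the mean log2 CPM was 1 or more. The groups did not overlap for 10 of 10 genes, against 58.3% of all genes. A change of at least 1 log2 unit was found for 3 of 10, against 7.28% of all genes. The median absolute log2 fold change was 0.81 for the list and 0.33 for all genes tested, and the median signed values were -0.35 and 0.011.

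**Figure D1:**
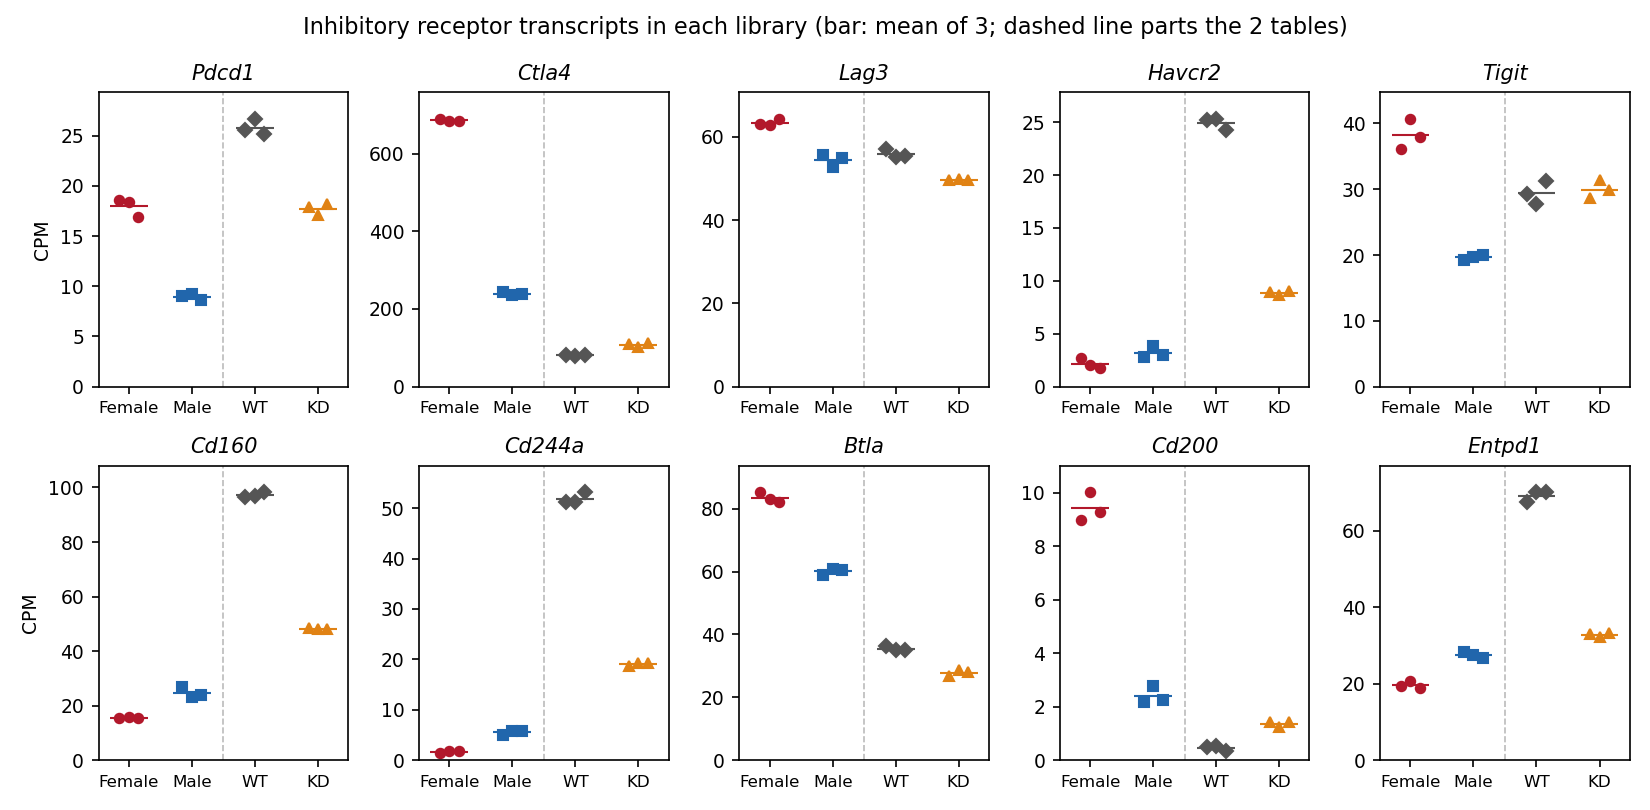
CPM of each of the 10 genes (vertical axes, each starting at 0) in the 3 libraries of Female, Male, WT and KD, with a bar at the mean. Ctla4 stands at 685.0 CPM or more in Female and far lower elsewhere, and Tigit overlaps between WT and KD. Cd244a, Cd160, Havcr2, Entpd1 and Pdcd1 are highest in WT, although the tables were normalized separately.

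Ctla4 encodes CTLA-4, which competes with the activating receptor CD28 for the ligands CD80 and CD86. The gene (ENSMUSG00000026011) lies on chromosome 1 at 60887000 to 60915832 on GRCm38. It was at 689.7, 685.2 and 685.0 CPM in Female and at 242.8, 236.2 and 238.2 CPM in Male. All Female libraries were far above all Male libraries, and replicates differed by a few percent. Female was 2.87-fold higher, and the LFC in Male over Female was -1.52 (SE 0.018, edgeR adjusted p 6.85e-12).

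Pdcd1 encodes PD-1, the receptor for PD-L1 and PD-L2, which recruits the phosphatase SHP-2 (Ptpn11). It lies on chromosome 1 at 94038305 to 94052553. Pdcd1 was at 18.6, 18.4 and 17.0 CPM in Female and at 9.07, 9.22 and 8.66 CPM in Male. The lowest Female library was above the highest Male library, and Male was at 50.0% of Female. The LFC was -0.999 (SE 0.061, edgeR adjusted p 3.08e-07).

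Tigit, a receptor for CD155 (Pvr) that competes with the activating receptor CD226, lies on chromosome 16 at 43648867 to 43664146. Its levels were 36.1, 40.7 and 38.0 CPM in Female and 19.3, 19.7 and 20.04 CPM in Male. Female was 1.95-fold higher with no overlap, an LFC of -0.96 (SE 0.049, edgeR adjusted p 7.57e-08). Of the 31-base subsequences of its transcripts, 8.37% also occur in transcripts of another gene, the highest share in the list, where the other 9 were at 1.65% or below.

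Cd200, the ligand of the inhibitory receptor CD200R on myeloid and other cells, is found on activated T cells and lies on chromosome 16 at 45382135 to 45409053. It was at 8.97, 10.0 and 9.29 CPM in Female and at 2.16, 2.79 and 2.25 CPM in Male. This was the largest fold of the list in this comparison, 3.93-fold higher in Female, with an LFC of -1.97 (SE 0.119, edgeR adjusted p 2.67e-07). The Male libraries held between 199 and 258 counts of it.

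Btla and Cd160 both bind HVEM (Tnfrsf14), and their transcripts moved in opposite directions. Btla, on chromosome 16 at 45224315 to 45257670, was at 85.2, 83.0 and 82.2 CPM in Female and at 58.9, 60.9 and 60.4 CPM in Male. Its LFC was -0.48 (SE 0.026, edgeR adjusted p 1.36e-07). Cd160, on chromosome 3 at 96798763 to 96829351, was at 15.3, 15.9 and 15.4 CPM in Female and at 26.7, 23.1 and 23.9 CPM in Male. Male was 1.58-fold higher for Cd160, an LFC of 0.66 (SE 0.059, edgeR adjusted p 5.18e-06). Neither gene overlapped between the sexes. Exons of Cd160 share 68 bases with Pdzk1 on the opposite strand, and the use of strand in counting is not given in the sources used here.

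Lag3, a relative of CD4 that binds MHC class II, showed the smallest difference. Its gene lies on chromosome 6 at 124904361 to 124911705. It was at 63.1, 62.8 and 64.3 CPM in Female and at 55.6, 52.8 and 54.9 CPM in Male. The groups did not overlap, and Male was at 85.8% of Female, an LFC of -0.22 (SE 0.029, edgeR adjusted p 0.000112).

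Cd244a encodes 2B4, a receptor for CD48 that signals through the adaptor SAP (Sh2d1a), and lies on chromosome 1 at 171559193 to 171609746. It was at 1.49, 1.81 and 1.83 CPM in Female and at 4.96, 5.83 and 5.87 CPM in Male. Male was 3.25-fold higher with no overlap, an LFC of 1.70 (SE 0.135, edgeR adjusted p 2.17e-06). The gene was low in both sexes, with 126 to 178 counts per library in Female and 464 to 540 in Male.

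Entpd1, which starts the conversion of ATP towards adenosine, lies on chromosome 19 at 40612366 to 40741602. It was at 19.3, 20.8 and 18.9 CPM in Female and at 28.4, 27.4 and 26.7 CPM in Male. Male was 1.40-fold higher without overlap, an LFC of 0.48 (SE 0.049, edgeR adjusted p 1.39e-05).

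Havcr2 encodes TIM-3, for which galectin-9 is a reported ligand, and lies on chromosome 11 at 46454935 to 46481255. It was at 2.68, 2.05 and 1.81 CPM in Female and at 2.82, 3.81 and 2.97 CPM in Male. The highest Female and the lowest Male library were close, and the libraries held between 176 and 353 counts. The LFC was 0.56 (SE 0.183, edgeR adjusted p 0.0279). The call was lost without Male replicate 2 (LFC 0.41, edgeR adjusted p 0.123), without Female replicate 3 (0.44, adjusted p 0.0992), without Female replicate 2 (0.51, adjusted p 0.0796) and without a low-count filter (0.54, adjusted p 0.0664).

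Some genes listed as markers of other cells also differed between Male and Female. Of 5 listed markers of CD4 and regulatory T cells, the summed level was 233.5 to 239.2 CPM in Female and 103.7 to 107.6 CPM in Male. Ikzf2 (147.2 against 48.4 CPM) and Zbtb7b (85.1 against 51.6 CPM) made up most of it, and both were called lower in Male, as was Cd4. The defining gene Cd4 was at 0.149 to 0.201 CPM in Female. In Male it was at 0 counts, while Ikzf2 and Zbtb7b averaged 48.4 and 51.6 CPM. Foxp3 was at 2.03 to 3.43 CPM in Female and at 3.96 to 5.21 CPM in Male, and was called higher there (edgeR adjusted p 0.0208). That call was lost without Female replicate 1 (edgeR adjusted p 0.0551), without Male replicate 1 (0.0996) and without a low-count filter (0.0572). Erythroid and platelet markers summed to 7.57 to 8.56 CPM in Female and 1.82 to 2.42 CPM in Male. Of all genes, 26.3% were called lower in Male, and of this list 3 of 4 testable genes. Of these, the platelet genes Ppbp and Pf4 averaged 1.38 and 0.952 CPM in Female, and in Male Ppbp was at 0 counts and Pf4 did not exceed 0.0226 CPM. The part of any of these in the receptor differences was not tested.

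The comparison of KD with WT asked what lowering Kdm5d changed in male cells. Of the 10 genes, all passed the filter and 9 were called, 2 higher and 7 lower in KD. Of 20413 genes tested, 35.1% passed, 16.8% being higher in KD and 18.4% lower, and 51.1% where the mean log2 CPM was 1 or more. The groups did not overlap for 9 of 10 genes, against 46.8% of all genes, and 5 of 10 changed by at least 1 log2 unit, against 3.96%. The median absolute log2 fold change was 0.78 for the list and 0.21 for all genes tested, and the median signed values were -0.44 and 0.012.

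**Figure D2:**
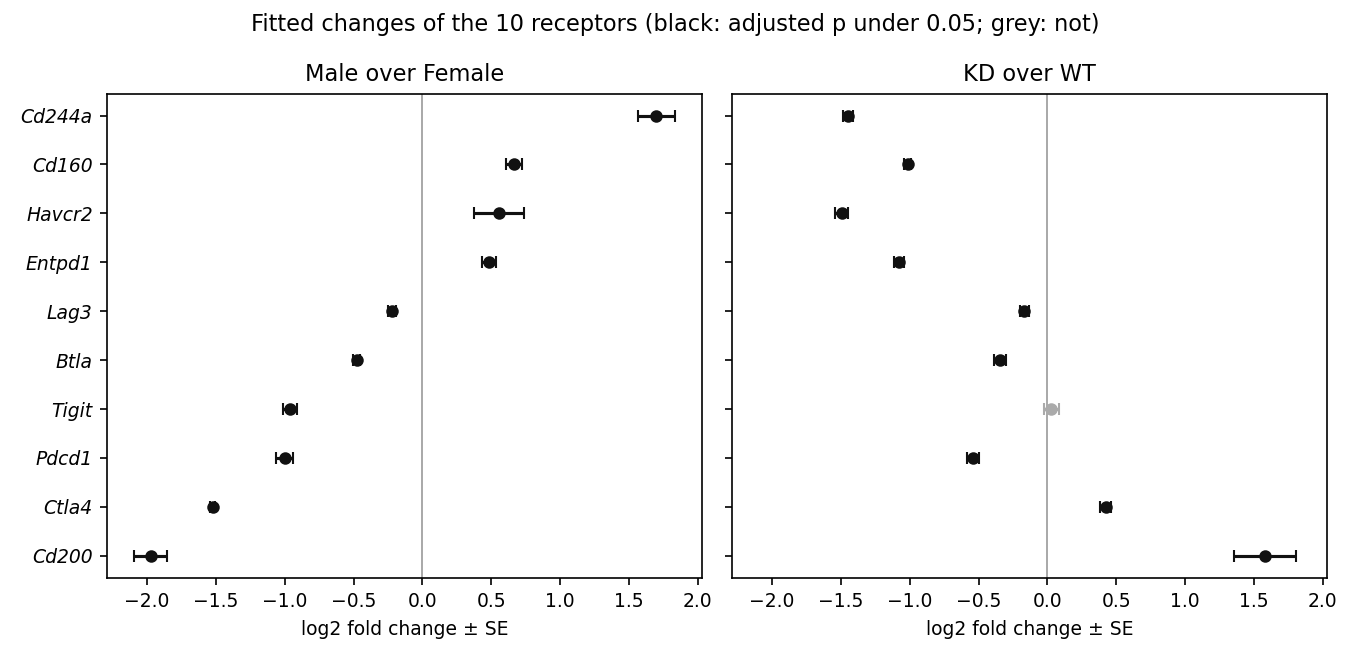
Fitted LFC with its SE (horizontal axes) for each gene in Male over Female, left, and KD over WT, right, in the same order of genes. The 4 genes at the top are right of 0 on the left and left of 0 on the right, and only Tigit in KD over WT, in grey, was not called.

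Havcr2 fell the most. It was at 25.3, 25.3 and 24.3 CPM in WT and at 8.95, 8.65 and 9.00 CPM in KD. WT was 2.81-fold higher with a wide gap between the groups, an LFC of -1.49 (SE 0.048, edgeR adjusted p 1.01e-08). Unlike in the non-electroporated cells, the libraries here held between 716 and 2763 counts, and the call was kept in all 15 alternative fits.

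Cd244a was at 51.3, 51.3 and 53.1 CPM in WT and at 18.6, 19.2 and 19.2 CPM in KD. It fell to 36.7% of WT, an LFC of -1.45 (SE 0.038, edgeR adjusted p 3.60e-09). Entpd1 was at 67.5, 70.0 and 70.0 CPM in WT and at 33.0, 32.2 and 33.1 CPM in KD, with an LFC of -1.08 (SE 0.034, edgeR adjusted p 8.74e-09). Cd160 was at 96.6, 97.1 and 98.2 CPM in WT and at 48.3, 48.0 and 48.1 CPM in KD. Its LFC was -1.01 (SE 0.027, edgeR adjusted p 3.68e-09). For each of these 3 genes the KD mean was below 50.0% of the WT mean, and replicates lay close together.

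Pdcd1 was at 25.6, 26.7 and 25.2 CPM in WT and at 17.9, 17.1 and 18.2 CPM in KD. KD was at 68.7% of WT without overlap, an LFC of -0.54 (SE 0.044, edgeR adjusted p 6.61e-06). Btla was at 36.2, 35.02 and 34.95 CPM in WT and at 26.7, 28.8 and 28.0 CPM in KD, with an LFC of -0.34 (SE 0.041, edgeR adjusted p 9.87e-05). Lag3 was at 57.0, 55.1 and 55.3 CPM in WT and at 49.7, 49.8 and 49.6 CPM in KD. Its LFC of -0.17 (SE 0.031, edgeR adjusted p 0.00196) was again the smallest of the called genes.

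Ctla4 and Cd200 rose in KD. Ctla4 was at 80.7, 80.0 and 82.1 CPM in WT and at 110.7, 102.0 and 112.8 CPM in KD. KD was 1.34-fold higher, an LFC of 0.42 (SE 0.038, edgeR adjusted p 1.37e-05). Cd200 was at 0.475, 0.540 and 0.350 CPM in WT and at 1.43, 1.24 and 1.42 CPM in KD. That was 2.99-fold higher without overlap, with an LFC of 1.58 (SE 0.223, edgeR adjusted p 0.000316), but on only 34 to 52 deposited counts per library in WT and 114 to 137 in KD, which may be more than the fragments behind them.

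Tigit was at 29.2, 27.7 and 31.2 CPM in WT and at 28.6, 31.3 and 29.8 CPM in KD. The groups overlapped, and the LFC of 0.028 (SE 0.053, edgeR adjusted p 0.735) was within the spread of the replicates. Whether this differs from its change between the sexes was not tested.

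The summed level of natural killer cell markers moved with the 4 genes that fell most, mainly through Fcer1g. Their summed level over 6 listed genes was 9.85 to 10.5 CPM in WT and 3.80 to 4.66 CPM in KD, and 0.956 to 1.18 CPM in Female and 1.72 to 2.06 CPM in Male. Of 4 genes of this list that could be tested, 2 fell in KD, Fcer1g and Klrb1c, against 18.4% of all genes. Tyrobp and Ncr1 were not called in KD (edgeR adjusted p 0.727 and 0.726). Fcer1g, an adaptor chain that activated CD8 T cells can also express, made up most of the sum in WT, at 7.88 CPM against 2.49 CPM in KD. The defining gene Ncr1 did not exceed 0.203 CPM in any library, and Klra8 was at 0 counts in Female, Male and WT. In KD, Klra8 and Klra4 did not exceed 0.0829 and 0.124 CPM. Of the 8 CD8 T cell markers, 5 were called lower in KD, against 18.4% of all genes. Of genes whose mean log2 CPM was 1 or more, 51.1% were called in either direction. The median LFC over all 8 markers was -0.11, and their summed level was 2778 to 2835 CPM in WT and 2439 to 2505 CPM in KD. The part of these in the receptor differences was not tested.

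**Figure D3:**
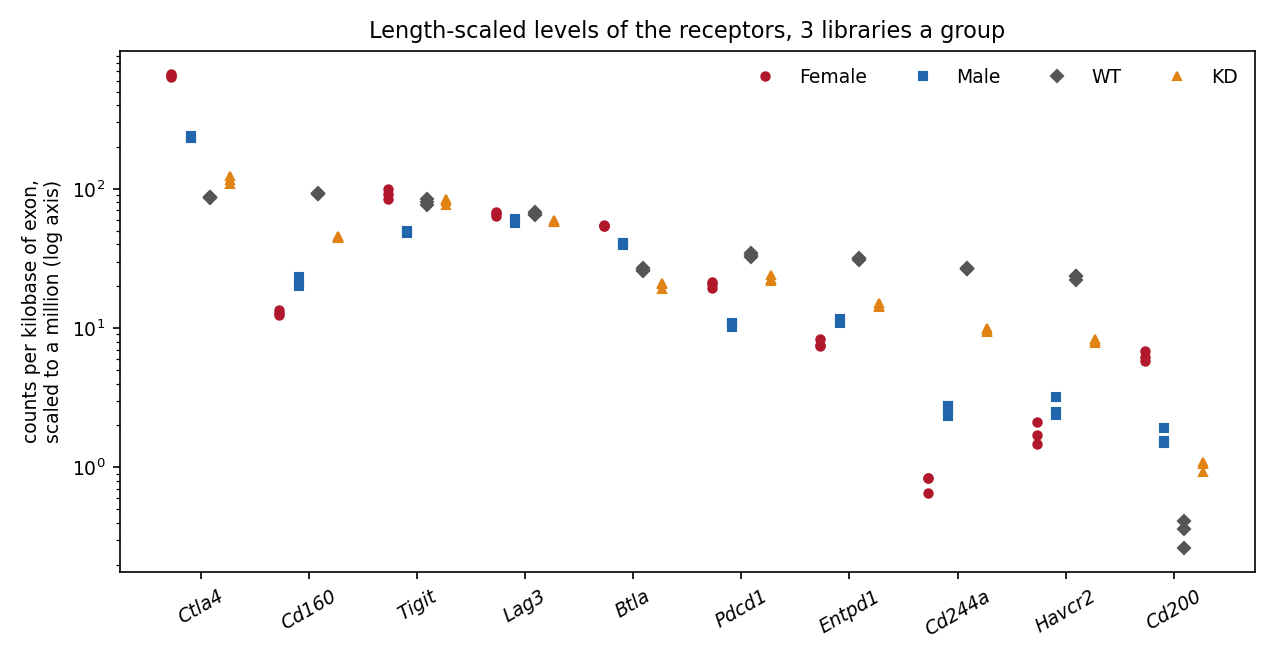
Counts per kilobase of exon, scaled to 1000000 within each library (vertical log axis), for the 10 genes in the 3 libraries of each group. Group means span from 0.345 for Cd200 in WT to 651.0 for Ctla4 in Female, and Ctla4 is the highest gene in every group but WT.

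Levels were compared between genes on a scale divided by exon length, as counts per kilobase of exon scaled to 1000000 in each library. The length was that of all annotated exons of a gene merged. A gene that uses only some of them can be placed too low, and the spread of libraries does not show this. In Female, Ctla4 led at 651.0 ± 14.9 (SD, n = 3), followed by Tigit at 92.1 ± 7.85, Lag3 at 66.4 ± 2.01 and Btla at 54.3 ± 0.782 on this length-scaled scale. Pdcd1, Cd160, Entpd1, Cd200, Havcr2 and Cd244a came next in that order, down to 0.776 ± 0.105 (SD, n = 3), and no neighbours in the order overlapped. In Male, Ctla4 led at 234.9 ± 3.60 (SD, n = 3), then Lag3, Tigit, Btla and Cd160, and Cd200 was lowest at 1.65 ± 0.233. The libraries of Entpd1 and Pdcd1 overlapped there, as did those of Havcr2 and Cd244a, so their order is not settled by these data.

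In WT the order was different. Cd160 led at 92.5 ± 0.235 (SD, n = 3) on the length-scaled scale, with Ctla4 next at 87.3 ± 0.522, then Tigit at 80.2 ± 4.06 and Lag3 at 66.5 ± 1.76. Cd200 was lowest at 0.345 ± 0.0758. Cd244a and Btla overlapped there, and no other neighbours did. In KD, Ctla4 led at 115.6 ± 7.53 (SD, n = 3), ahead of Tigit, Lag3 and Cd160, and Cd200 was lowest at 1.02 ± 0.0850, with no overlap between neighbours. Male and WT are both male cells, but they differ in batch and electroporation and possibly in stimulation, and their tables were normalized separately. The length-scaled level of Havcr2 was 2.69 ± 0.448 in Male and 23.0 ± 0.780 in WT, and that of Cd244a was 2.61 ± 0.238 and 26.7 ± 0.269 (SD, n = 3), which was not tested.

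Set side by side, 9 of 10 genes were called in both comparisons, and 6 of them moved in opposite directions. Of all genes tested in both, 25.7% were called in both. These comparisons share no samples. Of 19529 genes tested in both, 14.1% were called in both in opposite directions, and 20.6% where the mean log2 CPM was 1 or more in both tables. Among the genes called in both, 55.1% moved in opposite directions, so 6 of 9 is not far from the share over all such genes. Up in Male and down in KD were 4 of 10 genes of the list against 7.33% of all genes, down in Male and up in KD were 2 of 10 against 6.82%, lower in both were 3 of 10 against 6.62%, and higher in both were 0 of 10 against 4.92%.

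**Figure D4:**
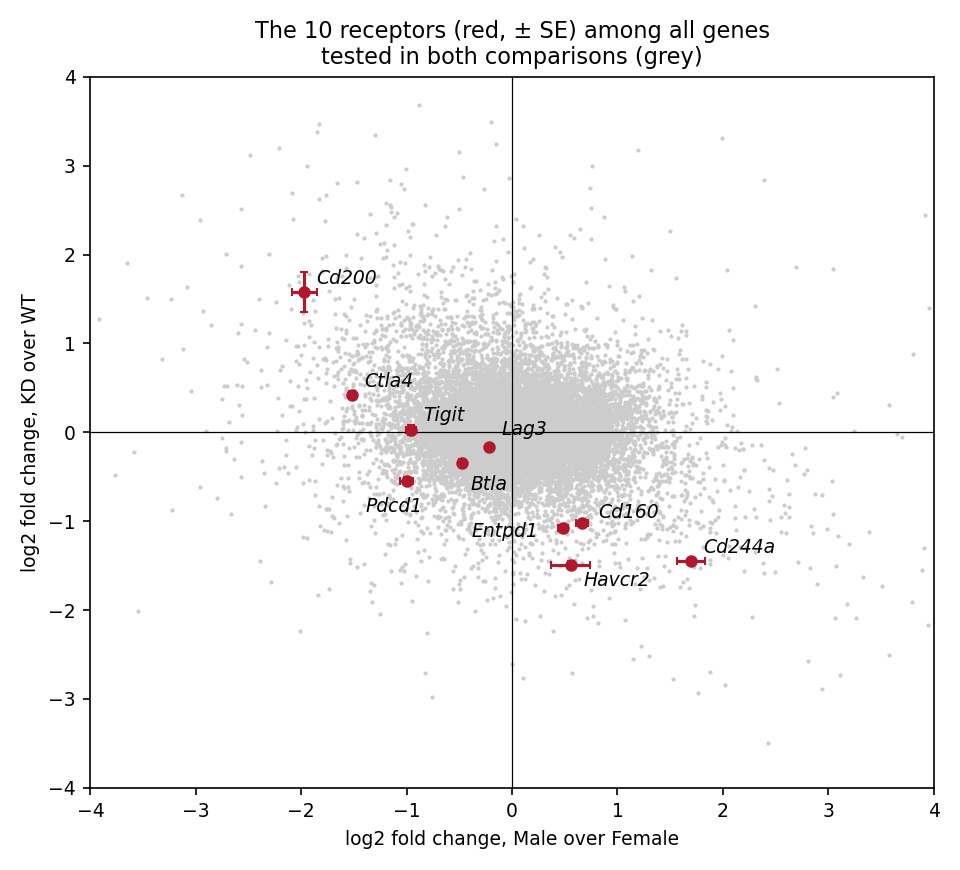
Log2 fold change of KD over WT (vertical axis) against Male over Female (horizontal axis), with the 10 genes in red with SEs and all 19529 genes tested in both in grey, except 49 outside the axes. Cd244a, Havcr2, Cd160 and Entpd1 lie in the lower right, Cd200 and Ctla4 in the upper left, and Pdcd1, Btla and Lag3 in the lower left.

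The genes most like each receptor were found by Pearson correlation of log2 CPM over the 12 libraries, with each table centred on its own mean, among 11874 genes. These points form 4 groups, so high values mainly reflect 2 group differences. For Cd244a the closest were Itpripl2 (r = 0.995), Serpinb9 (0.993) and Adam19 (0.993). Serpinb9 encodes an inhibitor of granzyme B. For Cd160 they were Acadl, Atp8b2 and Ftl1, with r between 0.994 and 0.996, and for Entpd1 they were Epsti1, Ehd1 and Cars, with r between 0.995 and 0.997. For Havcr2 they were Nub1, Ahcy and Exoc3l, with lower r between 0.975 and 0.980.

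For Ctla4 the closest were Trp53inp1 (r = 0.999), Mgst2 (0.996) and Nsd2 (0.996). For Pdcd1 they were Sh3kbp1, Mical1 and Ak3, with r between 0.993 and 0.996. Lag3 was closest to Tmem134, Lrmp and Gimap7, with r between 0.985 and 0.986, and Btla to Ssbp3, Pik3cd and Prkaca, with r between 0.995 and 0.997. Tigit was closest to Frmd8, Slc25a23 and Gatad2b, with r between 0.991 and 0.992. Cd200 was too low in the WT and KD table to be included. No gene of the list was among the 3 closest to another.

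Ligands and partner enzymes of these receptors were described next. The counts for this and the 4 lists after it stand beside 23.5% of all genes called higher and 26.3% lower in Male, and 16.8% higher and 18.4% lower in KD. Of 17 listed genes, 15 were tested between Male and Female, with 6 called higher and 4 lower in Male, and a median LFC of 0.11. In KD against WT, 16 were tested, with 3 called higher and 9 lower in KD, and a median of -0.28. Fgl1, a reported LAG-3 ligand, did not pass the filter in either table. The 4 genes named by rule in each comparison included 3 in common, Lgals3, Lgals9 and Cd48.

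Lgals9 (galectin-9, reported for TIM-3) rose from 38.2 to 84.4 CPM in Male, an LFC of 1.14, and fell from 95.9 to 66.9 CPM in KD, an LFC of -0.52 (edgeR adjusted p 1.09e-08 and 3.67e-06). Cd48, the ligand of 2B4, had LFCs of 0.60 in Male over Female and -0.46 in KD over WT (edgeR adjusted p 2.29e-08 and 1.02e-06). Lgals3 (galectin-3, reported for LAG-3) had 1.53 and -1.04 (edgeR adjusted p 2.90e-10 and 5.43e-09). Lgals9 and Cd48 thus moved in the same directions as Havcr2 and Cd244a in both comparisons, although the Havcr2 call in Male was lost in several alternative fits. Lgals3 and Lag3 moved in opposite directions in Male over Female. So did Cd244a and its adaptor gene Sh2d1a, from another list, which had an LFC of -0.87 (edgeR adjusted p 7.73e-07) and was not called in KD. Tnfrsf14 was not called in Male and rose in KD, where Btla and Cd160 fell (LFC 0.22, edgeR adjusted p 0.0095). Cd200r1, the receptor of CD200, fell in KD from 9.28 to 4.78 CPM, where Cd200 rose (LFC -0.95, edgeR adjusted p 1.68e-05).

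The enzyme CD73 (Nt5e), which follows CD39 in making adenosine, fell from 65.7 to 41.1 CPM in Male, an LFC of -0.68 (edgeR adjusted p 3.92e-07). Entpd1 moved the other way between the sexes. In KD over WT both fell, Nt5e with an LFC of -0.27 (edgeR adjusted p 2.92e-05). Other genes of this list were singled out after their values were seen. Among them, the CTLA-4 ligand genes Cd80 and Cd86 moved in opposite directions. Cd80 had LFCs of -1.25 in Male over Female and 0.37 in KD over WT, the directions of Ctla4, and Cd86 had 1.35 and -1.64 (edgeR adjusted p 1.28e-06, 0.000171, 2.84e-05 and 7.08e-05 in that order). Pvr, the TIGIT ligand, had 0.29 and -0.30, and Adora2a, an adenosine receptor, had -0.73 and -0.79 (edgeR adjusted p at most 0.000195). Cd274, which encodes PD-L1, averaged 23.8 CPM in Male and 22.1 in Female, and 30.01 in KD and 27.0 in WT. Its edgeR adjusted p was 0.051 in both comparisons, from 0.0172 to 0.204 and from 0.0240 to 0.170 over the alternative fits.

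A list of rivals and relatives held receptors that share a ligand or a family with the 10 genes, most of them activating, and the HVEM ligand gene Tnfsf14. All 10 listed genes were tested, with 4 called higher and 6 lower in Male (median LFC -0.25), and in KD 2 higher and 6 lower (median -0.18). Cd28, which shares its ligands with CTLA-4, fell from 348.3 to 200.2 CPM in Male, an LFC of -0.80 (edgeR adjusted p 6.59e-10). It was not called in KD. Of 2 relatives of 2B4 in the SLAM family, Slamf7 had LFCs of 1.71 in Male over Female and -0.52 in KD over WT, the directions of Cd244a. Slamf6 had -1.51 and 0.69 (edgeR adjusted p 4.47e-10, 3.45e-07, 1.86e-10 and 1.88e-06 in that order). Ly9, another SLAM family member, had 0.62 in Male over Female and -0.25 in KD over WT (edgeR adjusted p 2.51e-08 and 0.00011). Cd226 and Cd96, which share CD155 with TIGIT and of which Cd96 is also reported to be inhibitory, had -0.27 and -0.25 in KD over WT (edgeR adjusted p 9.26e-05 and 9.90e-05). In Male over Female, Cd226 had 0.11 and Cd96 -0.33 (edgeR adjusted p 0.00201 and 2.17e-06).

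**Figure D5:**
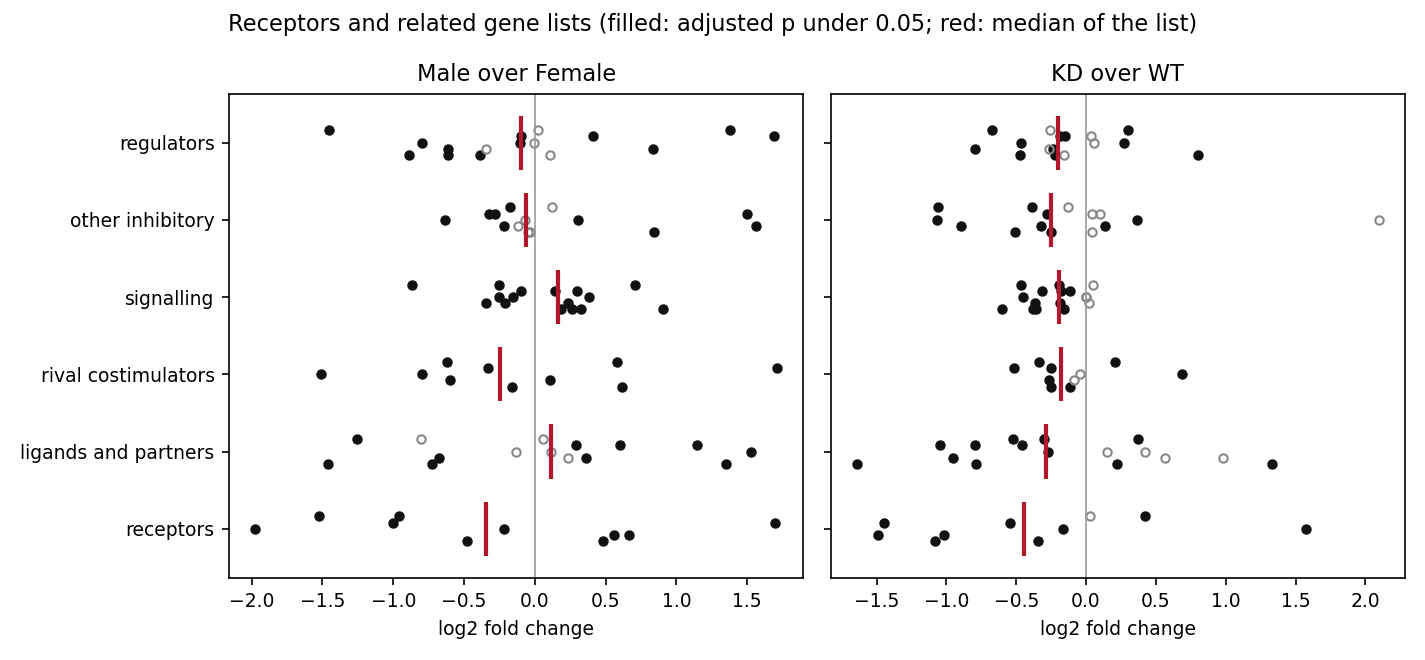
Log2 fold change (horizontal axes) of each tested gene in the receptor list and 5 related lists, for Male over Female, left, and KD over WT, right, with filled points for called genes and a red bar at the median of each list. The receptor list is spread from -1.97 to 1.70 on the left, and all 5 related lists have medians below 0 on the right.

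A list of 16 genes, all tested, held adaptors, phosphatases and kinases reported downstream of these receptors and genes reported to handle the receptor proteins. The latter were the clathrin adaptor subunits Ap1m1 and Ap2m1, the trafficking gene Lrba, the ubiquitin ligase gene Fbxo38 and the chaperone gene Bag6. In Male, 9 were called higher and 7 lower (median LFC 0.16). Of all genes, 49.8% were called there, and 70.0% where the mean log2 CPM was 1 or more. In KD, 12 fell, Ap1m1, Ap2m1 and Fbxo38 among them, and the remaining 4 were not called (median -0.19). Of all genes, 18.4% were called lower in KD. Where the mean log2 CPM was 1 or more, 51.1% were called in either direction. Dok2, an adaptor that limits T cell receptor signals, had LFCs of 0.91 in Male over Female and -0.60 in KD over WT. Inpp5d, the lipid phosphatase SHIP-1, had 0.71 and -0.47, and the kinase genes Fyn and Lck had 0.38 and 0.26 in Male over Female and -0.45 and -0.36 in KD over WT. The edgeR adjusted p of these 4 genes was at most 2.48e-07 in Male against Female and 4.19e-07 in KD against WT. Lck is also in the list of CD8 T cell markers.

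A list of other surface proteins with reported inhibitory roles numbered 15, of which 14 were tested between the sexes, with 4 called higher and 5 lower in Male (median LFC -0.059). All 15 were tested in the other table, with 2 higher in KD and 8 lower (median -0.25). Lilrb4a, an inhibitory immunoglobulin-like receptor, rose from 47.6 to 134.2 CPM in Male, an LFC of 1.49, and fell from 160.1 to 76.8 CPM in KD, an LFC of -1.06 (edgeR adjusted p 4.41e-09 and 1.85e-08). Cd5 and Cd6, which temper T cell receptor signals, had -0.64 and -0.33 in Male over Female (edgeR adjusted p 2.86e-08 and 7.67e-07). In KD, Cd5 rose (LFC 0.36, edgeR adjusted p 0.000167) and Cd6 was not called. Vsir (VISTA) had -0.28 in Male over Female and -0.39 in KD over WT (edgeR adjusted p 1.62e-06 and 1.26e-06). In KD over WT, Klrd1 had -0.89 and Tnfrsf1b -0.28 (edgeR adjusted p 3.95e-07 and 1.58e-05). In Male over Female, Klrd1 had -0.22 (edgeR adjusted p 0.000293) and Tnfrsf1b was not called. Klrd1 encodes CD94, which pairs with inhibitory or activating NKG2 chains, and Tnfrsf1b encodes TNF receptor 2, which also costimulates CD8 T cells. Klrc1, the inhibitory partner of CD94, was not called in KD (LFC 0.040, edgeR adjusted p 0.681).

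Of 17 listed transcription factors reported to control these receptors, 16 were tested in each table. In Male, 4 were called higher and 8 lower (median LFC -0.098), and in KD 3 rose and 8 fell (median -0.20). Between the sexes, Tcf7, a factor of memory and stem-like T cells, had an LFC of -1.45, Eomes 1.69, Id2 1.38 and Irf4 -0.39 in Male over Female. Their edgeR adjusted p was at most 2.48e-07. In KD over WT, Irf4 had 0.80, Id2 -0.67, Bhlhe40 -0.46 and Maf -0.80, with edgeR adjusted p of at most 4.72e-06. Of these 6 factors, which were named for their small p, 4 were called in opposite directions in the 2 comparisons. Over all genes tested in both, 14.1% were, and 55.1% of those called in both. Irf4 and Tcf7 were lower in Male and higher in KD, Tcf7 with an LFC of 0.30 in KD over WT (edgeR adjusted p 8.26e-05). Id2 and Maf rose in Male and fell in KD, Maf with an LFC of 0.83 in Male over Female (edgeR adjusted p 4.59e-05). Eomes was not called in KD, nor Bhlhe40 in Male. Among the factors not named by this rule, Prdm1 and Nfatc2 were also called in opposite directions. Tox, Nr4a3 and Tbx21 were called lower in both comparisons.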

How the data were processed

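The authors deposited a table of counts per gene for the Female and Male libraries and another for WT and KD, as whole numbers whose totals differ between libraries. Ribosomal RNA was depleted and the libraries are stranded, per the labels' protocols. The submitters' processing notes list bcl2fastq 2.20.0, HISAT2, StringTie, DESeq2 and mm10 without roles, and the annotation and the use of strand are not given in the sources used here. StringTie can derive counts from read coverage, so the deposited counts may exceed the number of fragments, and fits on counts divided by 4 were an alternative for this. Replicate pairs gave a mean chi-square per gene of 10.2 to 87.4, where independent reads give about 1. Counts that exceed the fragments also raise this value, so it does not show whether replicates were technical. Low counts are less certain than their number.

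Identifiers were matched to GENCODE M21 (GRCm38, the assembly also called mm10), 55227 of 55487. Each table had its own fit in R 4.3.3 with edgeR 4.0.16: TMM factors, filterByExpr, the quasi-likelihood test and Benjamini-Hochberg adjustment over all genes tested, with calls at an adjusted p under 0.05. CPM used TMM-scaled library sizes. The SE is the size of the log2 fold change over the square root of F. The fit was tested on simulated counts, in which far fewer genes changed than were called in these data.

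The receptors, gene lists, markers, motifs and tests were chosen with earlier results of these data known. From the 5 related lists, up to 4 genes a list were named in each comparison, those with the smallest p among called genes whose groups did not overlap. For receptors whose mean log2 CPM reached 1 in both tables, the 3 genes with the most similar pattern were named. Alternatives covered normalization, filters, DESeq2 1.42.0, limma-voom (limma 3.58.1), all 12 libraries in 1 fit, the replicate number as a block, counts divided by 4, a minimum log2 fold change of 0.5, and leaving out each library. Sequences came from RefSeq promoter windows (GRCm38.p6).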

Additional observations from a re-analysis of the deposited data

How the results depend on the processing

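Of the 10 receptor genes, 9 to 10 were called in Male against Female and 9 in KD against WT under every alternative except a minimum log2 fold change of 0.5, where fewer genes can pass and the counts were 7 and 6. Without 1 library the counts were 9 to 10 and 9 to 9. No called receptor gene changed direction. Havcr2 in Male against Female lost its call in 4 of 15 alternatives, with log2 fold changes from 0.41 to 0.72 without 1 library. The uncalled Tigit in KD against WT ran from -0.011 to 0.071 without 1 library, so its sign was not fixed, and the uncalled Klrc1 there from -0.0045 to 0.061. Foxp3 in Male against Female lost its call in 3 alternatives. In the 5 related lists, 57 of 71 genes tested were called in Male against Female and 53 of 73 in KD against WT. Of all genes tested, 49.8% and 35.1% were called, and 70.0% and 51.1% where the mean log2 CPM was 1 or more. The counts for the lists fell to 30 and 17 with the minimum log2 fold change of 0.5, and were 56 to 59 and 51 to 52 without 1 library.

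With the replicate number as a block, 10 receptor genes were called in Male against Female and 9 in KD against WT, and no receptor gene changed its call. Deviations of WT and KD libraries with the same number correlated at 0.209, -0.187 and 0.192, and those of Female and Male at 0.0247, -0.0604 and 0.0671, so the numbers were not taken as pairs. The low counts of Cd200 in WT and of Havcr2 and Cd244a in Female limit the precision of their folds.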
